A study of Mus musculus with 15 samples.

Results

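The Notch receptors, their ligands and the HES target genes were followed across wild-type mouse embryonic stem cells (mESCs) and cells with a knockout of Stag1 or Stag2, a knockdown of Stag1, or a knockdown of Stag1 on the Stag2 knockout. The 10 genes were chosen by name, as the rows for Notch1, Notch2, Notch3, Notch4, Dll1, Dll3, Jag1, Jag2, Hes1 and Hes5, out of 23412 genes listed in each count file. That choice was made with earlier results of these data known, so shares of all genes are given beside the counts as description. All 10 were found in all 15 libraries and all 10 were among the 14508 genes with enough reads to test. STAG1 and STAG2 are alternative subunits of cohesin, the ring-shaped complex that folds chromosomes and holds sister chromatids together. PolyA RNA was sequenced from 5 conditions with 3 replicates each, all made in the male v6.5 mESC line grown on gelatin. All wells received 50 nM of siRNA and were harvested after 48 h. Wild-type, Stag1-/- and Stag2-/- cells received the non-targeting control siGLO, and wild-type and Stag2-/- cells also received siStag1 against Stag1. Each knockout was 1 CRISPR clone, so a difference between genotypes and a difference between clones cannot be told apart. The study calls its replicates biological, and they came from the same clone, so p-values measure the spread between libraries of 1 clone.

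Notch signaling works between neighboring cells. Ligands of the Delta (Dll) and Jagged (Jag) families on one cell bind Notch receptors on the next, the receptor is cut by an ADAM protease and then by gamma-secretase, and the freed intracellular domain joins the DNA-binding protein RBPJ to activate genes such as Hes1 and Hes5, which encode transcriptional repressors. In mESCs the pathway is known for favoring exit from pluripotency toward the neural lineage.

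Because RBPJ is the factor through which Notch acts on DNA, the 250 bases before the start site of each gene were searched for its core motif. The search used TGGGAA on both strands, in RefSeq promoters of the build GRCm38.p6. Promoters were found for 9 of the 10 genes, and Hes1 had no entry. Among the 10 promoters of these 9 genes, 1 held a match, that of Hes5, which is shown here for that reason. It lies directly upstream of the annotated gene at chr4:154960673-154960922 on the plus strand, with the 2 matches in capitals.
Hes5: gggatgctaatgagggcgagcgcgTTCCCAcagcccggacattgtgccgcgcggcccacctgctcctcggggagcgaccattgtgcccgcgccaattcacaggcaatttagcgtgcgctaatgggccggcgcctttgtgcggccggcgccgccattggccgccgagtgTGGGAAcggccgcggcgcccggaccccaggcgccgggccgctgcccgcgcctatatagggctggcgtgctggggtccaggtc
The first match is on the minus strand, 226 to 221 bases before the start, and the second is on the plus strand, 82 to 77 bases before it. Both also match the longer form GTGGGAA. Of 32851 mouse promoters of the same length, 21.6% held the core at least once and 2.77% held it 2 or more times. The longer form occurred 2 or more times in 0.161% of them. A match describes letters and was not tested for binding, and a window without one says nothing of RBPJ at that gene.

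The libraries held 14982560 to 19070126 reads on genes, and values between libraries are given in counts-per-million (CPM) after TMM scaling. The targeted genes were read first. Stag2 stood at 134 CPM in every wild-type siGLO library, at 38.1 to 42.5 CPM in Stag2-/- siGLO and at 48.9 to 54.0 CPM in Stag2-/- siStag1. Stag1 stood at 116 to 131 CPM in wild-type siGLO and 20.3 to 29.7 CPM in wild-type siStag1, and at 108 to 127 CPM in Stag2-/- siGLO and 36.1 to 44.9 CPM in Stag2-/- siStag1. In the libraries labelled Stag1-/- the count of Stag1 was 105 to 136 CPM and was not called lower (log2 difference -0.09, adjusted p = 0.728, edgeR). A count over the whole gene includes exons outside an edited one, so it does not check that label. The study describes this clone as an in-frame deletion with a normal transcript level and no protein that could be detected. These RNA data do not measure protein. The 6 markers of general pluripotency summed to 2620 to 3794 CPM over the 15 libraries. In Stag2-/- siStag1 2 of them were called higher and 3 lower than in wild-type siGLO, against 22.6% and 21.3% of all genes. The 6 log2 fold changes there ran from -1.61 to 0.74. In Stag1-/- siGLO 1 was higher and 1 lower, against 10.1% and 9.93% of all genes. In Stag2-/- siGLO 2 were higher and 0 lower, against 13.9% and 14.4%, and in wild-type siStag1 0 were called, against 0.248%.

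Levels were compared between genes per length, as CPM per kilobase of annotated exon in the GENCODE M21 annotation. In wild-type siGLO cells the order was led by Notch3, at 21.1 ± 4.71 CPM per kilobase (SD, n = 3). Hes1 followed at 11.8 ± 2.33, Jag2 at 8.79 ± 1.27, Notch1 at 5.82 ± 0.723 and Notch2 at 5.36 ± 0.110 CPM per kilobase. Jag1 reached 3.87 ± 0.301, Notch4 2.71 ± 0.399, Dll3 2.32 ± 0.285 and Dll1 2.10 ± 0.956, and Hes5 was lowest at 0.243 ± 0.161 CPM per kilobase. These mESCs thus carried RNA for all receptors and ligands examined, with Notch3 the most abundant receptor in all 5 conditions. The replicates of 4 neighboring pairs in this order overlapped, namely Hes1 with Jag2, Notch1 with Notch2, Notch4 with Dll3, and Dll3 with Dll1. In Stag2-/- siStag1 cells Notch3 still led, at 43.3 ± 14.2 CPM per kilobase, while Notch4 had moved from the seventh place to the lowest, at 0.914 ± 0.173. In those cells the Notch4 replicates lay within the range of the Hes5 replicates, from 0.291 to 1.62 CPM per kilobase.

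To ask how the pathway responds to stable loss of STAG1, stable loss of STAG2, acute depletion of STAG1, and that depletion on top of STAG2 loss, each condition was compared with wild-type siGLO. All log2 fold changes, SEs and adjusted p-values below are from edgeR's quasi-likelihood test over all 14508 genes with Benjamini-Hochberg adjustment, and a gene was called at an adjusted p under 0.1. In Stag1-/- siGLO cells 3 of the 10 genes rose and none fell, against 20.0% of all tested genes called (10.1% higher and 9.93% lower). Stag2-/- siGLO cells had 3 higher and 1 lower, against 28.3% of all genes (13.9% higher and 14.4% lower). Stag2-/- siStag1 cells had 6 higher and 1 lower, against 43.9% (22.6% higher and 21.3% lower). Wild-type siStag1 cells had none, against 0.248% of all genes. The median log2 fold change of the 10 genes was 0.35 in Stag1-/- siGLO, 0.48 in Stag2-/- siGLO, 0.80 in Stag2-/- siStag1 and 0.13 in wild-type siStag1 cells, with medians over all genes of -0.01, 0.01, 0.01 and -0.0017. The 4 comparisons share the wild-type siGLO libraries, so their values are given side by side and are not independent of each other. The libraries of the 2 groups compared did not overlap for 5, 4, 7 and 2 of the 10 genes in the same order, against 31.7%, 35.7%, 47.3% and 15.5% of all genes.

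**Figure D1:**
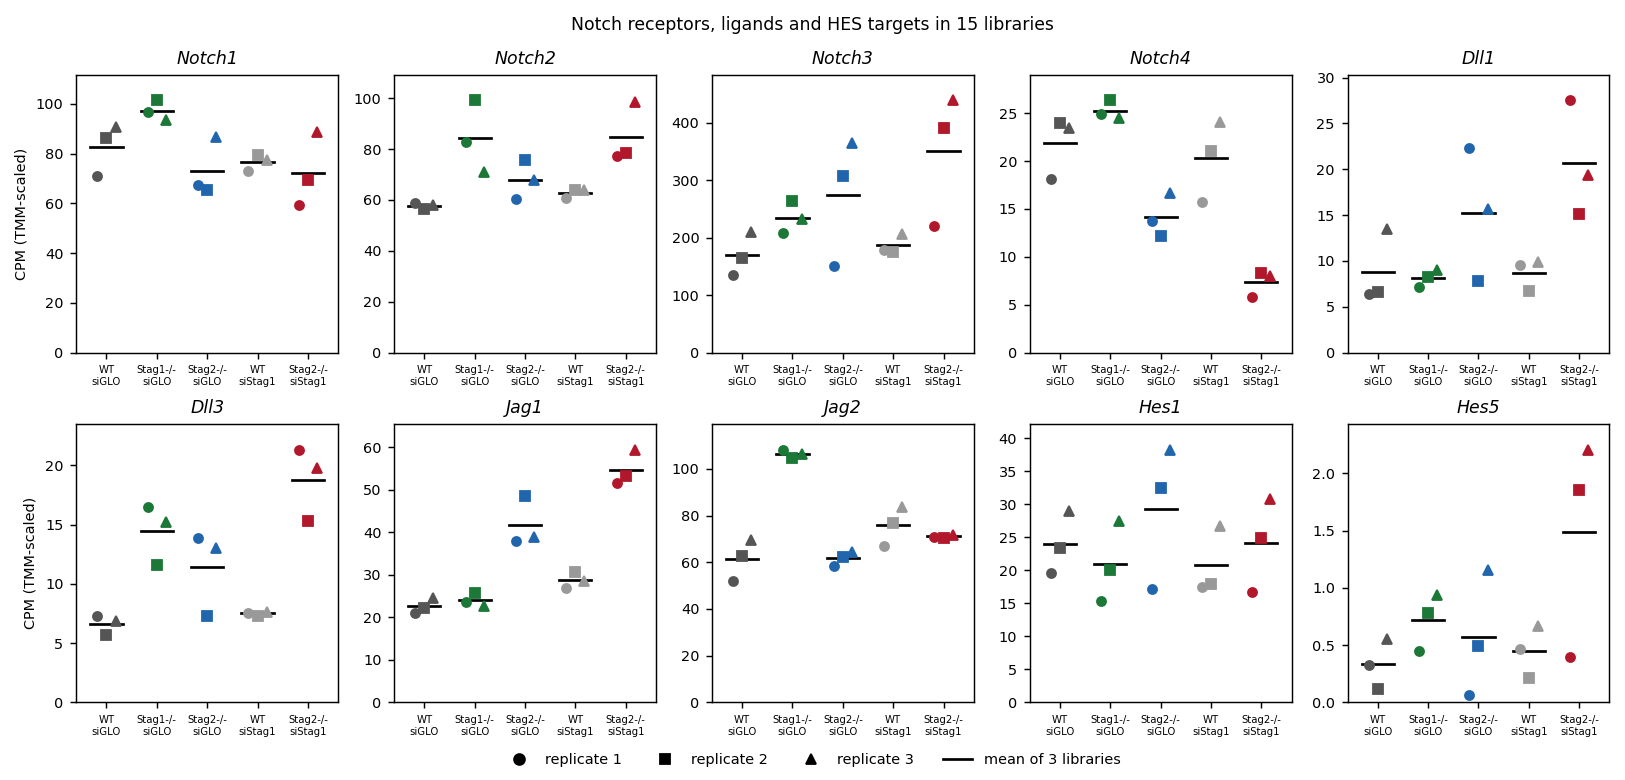
TMM-scaled counts-per-million (CPM, y axis from 0) of each of the 10 genes in the 15 libraries, by condition. Points are libraries shaped by replicate number, bars are means of 3, and in Stag2-/- siStag1 cells Notch4 lies below, and Jag1 and Dll3 above, every wild-type siGLO library.

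**Figure D2:**
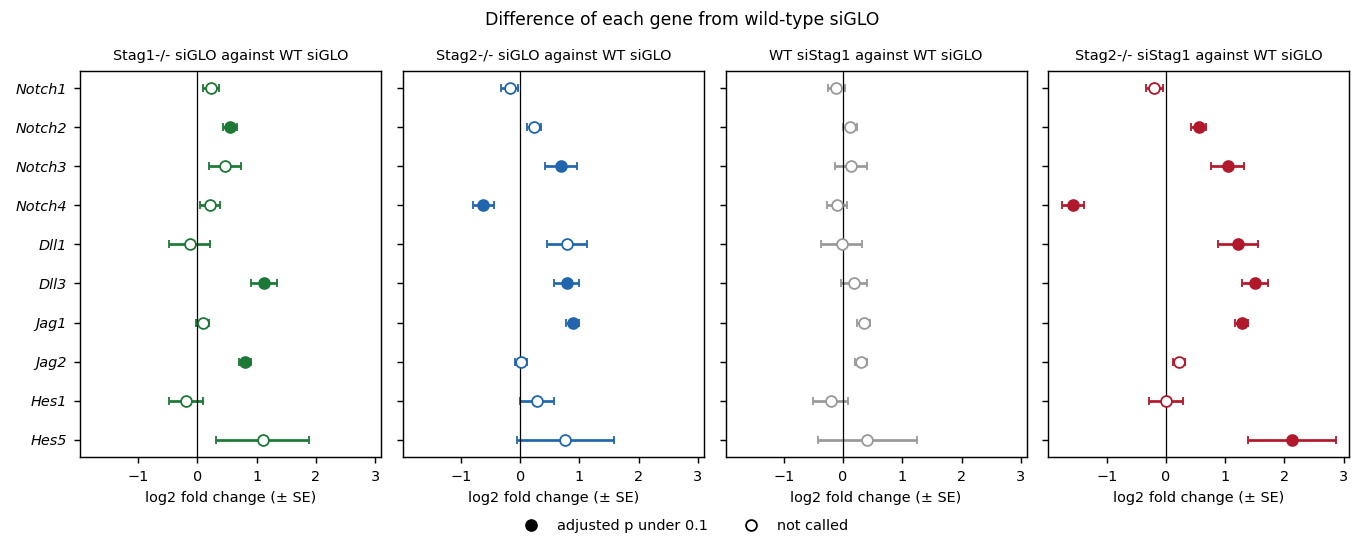
Log2 fold change of each gene against wild-type siGLO, with its SE, in the 4 other conditions. Filled points passed an adjusted p of 0.1 in edgeR's quasi-likelihood test, and the Stag2-/- siStag1 panel has 7 filled points and the wild-type siStag1 panel has none.

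Among the receptors, Notch4 was the only one called lower in any comparison with wild-type siGLO. Notch4, a receptor best known from endothelium, is encoded on chromosome 17 from 34564268 to 34588503 (mm10, plus strand). It stood at 18.2, 24.0 and 23.4 CPM in the wild-type siGLO libraries and at 24.9, 26.4 and 24.5 CPM in Stag1-/- siGLO. It stood at 13.8, 12.1 and 16.7 CPM in Stag2-/- siGLO, and at 5.77, 8.36 and 7.96 CPM in Stag2-/- siStag1. The Stag2-/- siGLO libraries were all below wild-type siGLO, and the Stag2-/- siStag1 libraries were below all others, with no overlap. In Stag2-/- siGLO the log2 level of Notch4 fell by 0.62 (SE 0.18, adjusted p = 0.0206, edgeR) and by 1.57 in Stag2-/- siStag1 (SE 0.18, adjusted p = 8.88e-06). In the libraries labelled Stag1-/- the log2 difference was 0.21 (95% interval -0.16 to 0.57, adjusted p = 0.476) and was not called.

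Notch3 is on chromosome 17 from 32120820 to 32166852 (minus strand), and stood at 135, 165 and 211 CPM in wild-type siGLO and at 221, 391 and 440 CPM in Stag2-/- siStag1. Every Stag2-/- siStag1 library lay above every wild-type siGLO library. Notch3 rose there by 1.04 (log2, SE 0.27, adjusted p = 0.00686, edgeR). In Stag2-/- siGLO the libraries stood at 150, 307 and 364 CPM, and replicate 1 lay among the wild-type values. The rise of 0.68 (SE 0.27, adjusted p = 0.0847, edgeR) was no longer called without wild-type replicate 1 (0.54, adjusted p = 0.222) or 2 (0.66, 0.195), or without Stag2-/- replicate 2 (0.59, 0.214) or 3 (0.42, 0.313). In the libraries labelled Stag1-/- Notch3 stood at 208, 265 and 233 CPM, a log2 difference of 0.46 (SE 0.27) that was not called (adjusted p = 0.287, edgeR). With the replicate number as a block, that difference was 0.49 (SE 0.16, adjusted p = 0.0406), and with only the compared libraries in the fit it was 0.46 (SE 0.15, adjusted p = 0.046), a call in both.

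Notch2 stood at 59.0, 56.6 and 57.9 CPM in wild-type siGLO, at 82.8, 99.4 and 71.2 CPM in Stag1-/- siGLO and at 77.4, 78.3 and 98.3 CPM in Stag2-/- siStag1. Both of these conditions lay wholly above wild-type. Notch2 rose by 0.55 on the log2 scale in each (SE 0.12, adjusted p = 0.00628 and 0.0022, edgeR). In Stag2-/- siGLO it stood at 60.4, 75.9 and 67.8 CPM, also above all wild-type siGLO libraries, and the log2 difference of 0.23 was not called (adjusted p = 0.186). Notch1, at 71.2 to 90.8 CPM in wild-type siGLO, was not called against wild-type siGLO in any of the 4 conditions, with log2 differences between -0.19 and 0.23. In Stag2-/- siStag1 a call appeared when its own replicate 3 was left out (-0.36, adjusted p = 0.0489). Notch1 is encoded on chromosome 2 from 26457903 to 26516663 (minus strand) and Notch2 on chromosome 3 from 98013527 to 98150361 (plus strand). Exons of Notch1, Notch3, Dll1 and Hes5 share bases with annotated transcripts of the opposite strand, and exons of Notch2 with a transcript of its own strand. None of these 6 overlapping genes has a row in the count files, and whether reads were counted by strand is not given in the sources used here.

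Of the 4 ligands, Dll3 and Jag2 rose in Stag1-/- siGLO, Dll3 and Jag1 rose in Stag2-/- siGLO, and Dll1, Dll3 and Jag1 rose in Stag2-/- siStag1. Jag1, a Jagged-type ligand on chromosome 2 from 137081456 to 137116644 (minus strand), stood at 20.998, 22.3 and 24.5 CPM in wild-type siGLO and at 23.6, 25.8 and 22.7 CPM in Stag1-/- siGLO. It stood at 37.9, 48.5 and 38.8 CPM in Stag2-/- siGLO and at 51.5, 53.2 and 59.4 CPM in Stag2-/- siStag1. The wild-type and Stag1-/- libraries overlapped, and both Stag2-/- conditions lay above them without overlap. Jag1 rose by 0.89 on the log2 scale in Stag2-/- siGLO (SE 0.11, adjusted p = 6.29e-05, edgeR) and by 1.28 in Stag2-/- siStag1 (SE 0.11, adjusted p = 4.5e-07). In Stag1-/- siGLO the difference was 0.09 (95% interval -0.15 to 0.33, adjusted p = 0.66).

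Jag2, the other Jagged-type ligand, on chromosome 12 from 112907819 to 112929776 (minus strand), showed the opposite arrangement. Its libraries stood at 51.8, 62.5 and 69.3 CPM in wild-type siGLO, at 108, 105 and 107 CPM in Stag1-/- siGLO and at 58.5, 62.3 and 64.3 CPM in Stag2-/- siGLO. The libraries labelled Stag1-/- stood above all 12 others, whose highest value was 83.8 CPM in wild-type siStag1. Jag2 rose in those cells by 0.80 (log2, SE 0.10, adjusted p = 7.72e-05, edgeR). In Stag2-/- siGLO the difference was 0.01 (adjusted p = 0.944). In Stag2-/- siStag1, at 70.9, 70.6 and 71.6 CPM, it was 0.22 (SE 0.10, adjusted p = 0.113), not called although all 3 libraries lay above wild-type siGLO. Without wild-type replicate 3 it was called (0.31, adjusted p = 0.0356).

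Dll3, a divergent Delta-type ligand known to inhibit Notch signaling from within the same cell, is on chromosome 7 from 28293553 to 28302238 (minus strand). It stood at 7.30, 5.72 and 6.84 CPM in wild-type siGLO, at 16.5, 11.6 and 15.2 CPM in Stag1-/- siGLO, at 13.9, 7.30 and 13.0 CPM in Stag2-/- siGLO and at 21.3, 15.3 and 19.7 CPM in Stag2-/- siStag1. In all 3 of the conditions other than wild-type the libraries lay above wild-type siGLO. Replicate 2 of Stag2-/- siGLO, at 7.3039 CPM, lay next to the highest wild-type siGLO library at 7.3037 CPM. Dll3 rose by 1.12, 0.78 and 1.503 on the log2 scale (SE 0.21, 0.22 and 0.21; adjusted p = 0.00218, 0.0181 and 5.81e-05, edgeR), and was the one gene of the 10 called in all 3.

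Dll1, a Delta-type ligand that activates Notch on neighboring cells, is on chromosome 17 from 15367354 to 15376872 (minus strand). It stood at 6.39, 6.66 and 13.5 CPM in wild-type siGLO and at 27.6, 15.1 and 19.3 CPM in Stag2-/- siStag1. These groups did not overlap, and Dll1 rose by 1.22 (log2, SE 0.34, adjusted p = 0.00973, edgeR). In Stag2-/- siGLO it stood at 22.3, 7.86 and 15.6 CPM, and replicate 2 lay below the highest wild-type library. The log2 difference of 0.79 was not called (SE 0.34, adjusted p = 0.112, edgeR). It was called with the replicate number as a block (0.75, adjusted p = 0.0392), and without wild-type replicate 3 (1.23, adjusted p = 0.031) or Stag2-/- replicate 2 (1.099, adjusted p = 0.0291). The Stag1-/- siGLO libraries stood at 7.12 to 8.98 CPM, a difference of -0.13 (95% interval -0.86 to 0.60).

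Of the 2 target genes, Hes5 was called higher in Stag2-/- siStag1 and Hes1 was called in no comparison with wild-type siGLO. Hes1, on chromosome 16 from 30064384 to 30067796 (plus strand), stood at 19.7, 23.5 and 29.1 CPM in wild-type siGLO, at 15.4, 20.0 and 27.5 CPM in Stag1-/- siGLO and at 17.1, 32.4 and 38.3 CPM in Stag2-/- siGLO. It stood at 17.5, 18.02 and 26.7 CPM in wild-type siStag1 and at 16.8, 25.0 and 30.9 CPM in Stag2-/- siStag1. All 5 conditions overlapped. In Stag2-/- siStag1 the log2 difference was 0.01 (95% interval -0.60 to 0.62, adjusted p = 0.985, edgeR), in the condition where 7 of the 10 genes were called.

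Hes5, on chromosome 4 from 154960923 to 154962371 (plus strand), was near the detection limit, with 6, 2 and 10 reads in the wild-type siGLO libraries and 7, 31 and 38 reads in Stag2-/- siStag1. On the CPM scale these were 0.322, 0.117 and 0.556 against 0.396, 1.85 and 2.21. Replicate 1 of Stag2-/- siStag1 lay within the wild-type range. Hes5 was higher by 2.13 on the log2 scale in that condition (SE 0.74, 95% interval 0.56 to 3.69, adjusted p = 0.0343, edgeR). The call was lost without wild-type replicate 2 (1.74, adjusted p = 0.13) or without Stag2-/- siStag1 replicate 3 (1.72, adjusted p = 0.13). In Stag1-/- siGLO there were 8, 14 and 18 reads and in Stag2-/- siGLO 1, 8 and 19, and neither difference was called (adjusted p = 0.397 and 0.547).

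Replicate number moved with the target genes. In all 5 conditions the library numbered 1 had the lowest Hes1 and the library numbered 3 the highest, and the library numbered 3 also had the highest Hes5 in all 5. Notch3 was lowest in the library numbered 1 in 4 of 5 conditions, and Dll3 was lowest in the library numbered 2 in 5 of 5. A test of the replicate numbers, chosen after these values were seen, fitted number and condition together in edgeR and called 7 of the 10 genes, against 30.3% of all tested genes. Hes1 had the smallest adjusted p of these (0.000399), with library 3 above library 1 by 0.81 on the log2 scale. Libraries numbered 3 exceeded those numbered 1 by 0.65 for Notch3 (adjusted p = 0.006) and by 1.61 for Hes5 (adjusted p = 0.0476). What the replicate numbers stand for is not given in the sources used here. In edgeR's test of any difference over the 5 conditions, 8 of the 10 genes were called, against 50.7% of all genes, and Hes1 (adjusted p = 0.52) and Hes5 (adjusted p = 0.122) were not. Hes5 was called without Stag2-/- siGLO replicate 1 (0.0618) or 3 (0.0521) or without Stag2-/- siStag1 replicate 1 (0.0251). Notch1 was among the 8 (adjusted p = 0.0732) and was not called with library size alone (0.157), without Stag1-/- siGLO replicate 1 (0.157), 2 (0.21) or 3 (0.12), or without replicate 2 of wild-type siGLO (0.103), Stag2-/- siGLO (0.108) or Stag2-/- siStag1 (0.125) or replicate 1 of wild-type siStag1 (0.1004). With the replicate number as a block all 10 were called, Hes1 with an adjusted p of 0.0243 and Hes5 with 0.0257, against 66.1% of all genes. Same-numbered libraries deviated together in 27 of 30 pairs from different conditions, so the pairing behind this block did not hold throughout.

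To ask whether acute depletion of STAG1 acts on the pathway in cells that still have STAG2 and in cells that do not, siStag1 was compared with siGLO within each genotype. In wild-type cells none of the 10 genes was called by edgeR's quasi-likelihood test, 2 had an unadjusted p under 0.05 (against 6.36% of all genes), and DESeq2 called 0. The 2 were both Jagged-type ligands. Jag1 stood at 26.9, 30.7 and 28.6 CPM with siStag1, above all 3 siGLO libraries, a log2 difference of 0.35 (95% interval 0.11 to 0.59, adjusted p = 0.44). Jag2 stood at 66.9, 76.6 and 83.8 CPM, overlapping with siGLO, a log2 difference of 0.31 (95% interval 0.09 to 0.53, adjusted p = 0.477). Notch4 (15.7, 21.1 and 24.1 CPM) had a difference of -0.10 with an interval from -0.47 to 0.26.

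In Stag2-/- cells 2 of the 10 genes rose with siStag1 and 1 fell, against 6.37% of all tested genes called (2.98% higher and 3.39% lower). The log2 level of Notch4 fell by 0.95 (SE 0.19, adjusted p = 0.00755, edgeR) and its groups did not overlap. Dll3 rose by 0.72 (SE 0.21, adjusted p = 0.0656) and Jag1 by 0.39 (SE 0.11, adjusted p = 0.0602), also without overlap between groups, as for 5 of the 10 genes and 19.3% of all genes. Both of these calls depended on single libraries. Dll3 was not called without Stag2-/- siGLO replicate 2 (0.48, adjusted p = 0.197) or without Stag2-/- siStag1 replicate 1 (0.62, 0.117) or 3 (0.68, 0.204). Jag1 was not called without Stag2-/- siGLO replicate 1 (0.33, adjusted p = 0.194) or 3 (0.34, 0.178), or without Stag2-/- siStag1 replicate 2 (0.41, 0.128) or 3 (0.33, 0.254). With only the compared libraries in the fit neither was called (adjusted p = 0.289 for Dll3 and 0.235 for Jag1). With the replicate number as a block 2049 genes were called in place of 924 (14.1% of those tested), and Notch2 was called as well (0.32, SE 0.11, adjusted p = 0.0834).

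The 2 effects of siStag1 were then tested against each other. Stag1 itself changed by -2.28 on the log2 scale in wild-type cells and by -1.53 in Stag2-/- cells. These differed by 0.75 (95% interval 0.35 to 1.15, adjusted p = 0.254, edgeR, not called). The part of this unequal knockdown in the values below was not tested. No gene of the 10 was called as differing between the genotypes (edgeR, 0.159% of all genes called, 0.0207% higher and 0.138% lower), 1 had an unadjusted p under 0.05 (against 5.80% of all genes), and DESeq2 called 0. That 1 was Notch4, whose effect in Stag2-/- cells was lower than in wild-type cells by 0.84 on the log2 scale (SE 0.25, 95% interval -1.38 to -0.31, adjusted p = 0.441, edgeR). Notch4 was called with the replicate number as a block (-0.85, SE 0.20, adjusted p = 0.0778), against 0.951% of all genes. Not every pair of same-numbered libraries deviated together in that comparison. For Jag1 the 2 effects differed by 0.04 (SE 0.16, adjusted p = 0.999).

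**Figure D3:**
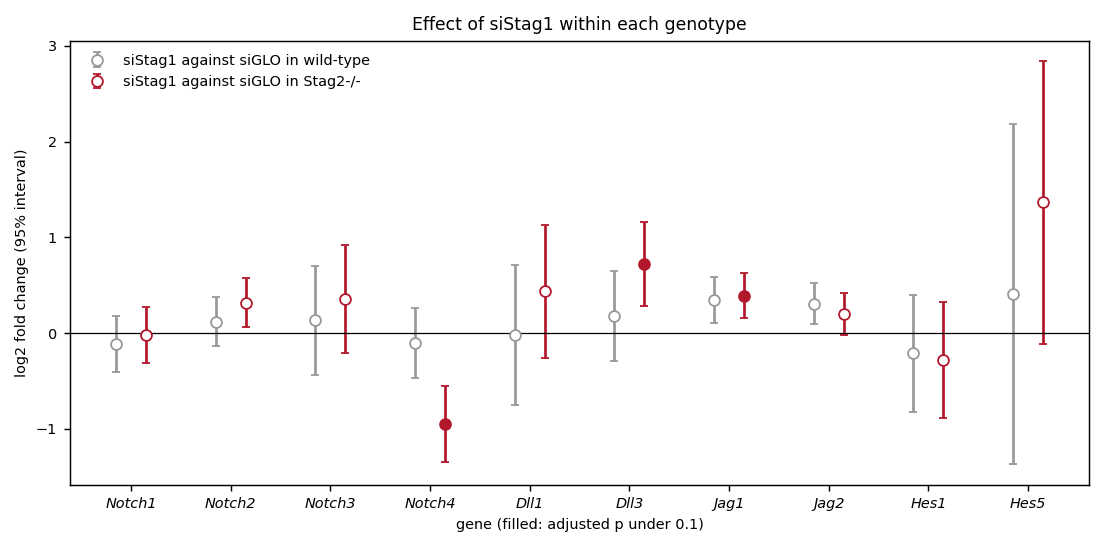
Log2 fold change of siStag1 against siGLO in wild-type (gray) and in Stag2-/- cells (red) for each gene, with 95% intervals. Filled points passed an adjusted p of 0.1 in edgeR's quasi-likelihood test, and Notch4 was at -0.10 in wild-type and at -0.95 in Stag2-/- cells, and Jag1 at 0.35 and 0.39.

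The knockouts were also compared directly, since a call in one and not in the other does not show a difference. Of the 10 genes, 4 were higher and 2 lower in the libraries labelled Stag1-/- than in Stag2-/- siGLO, against 25.7% of all genes called (12.7% higher and 12.9% lower). Jag2 was higher by 0.79 (SE 0.10, adjusted p = 8.93e-05, edgeR) and Notch4 by 0.83 (SE 0.18, adjusted p = 0.00391) on the log2 scale. Jag1 was lower by a log2 difference of -0.80 (SE 0.11, adjusted p = 0.000182). For these 3 genes the groups did not overlap, and they were called without any 1 of the 6 libraries. Notch1 was also higher without overlap, by 0.41 (adjusted p = 0.0481), and was no longer called without Stag1-/- replicate 2 (0.38, adjusted p = 0.136) or Stag2-/- replicate 1 (0.35, 0.127) or 2 (0.34, 0.167).

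The other calls between the knockouts were less stable. Notch2 was higher by 0.31 on the log2 scale (adjusted p = 0.0848, edgeR) and its groups overlapped. It was not called without Stag1-/- replicate 1 (0.33, adjusted p = 0.129) or 2 (0.18, 0.366) or without Stag2-/- replicate 1 (0.23, 0.247) or 3 (0.31, 0.153). Nor was it called with only the compared libraries (0.31, 0.17) or with scaling by library size alone (0.30, 0.114). Dll1 had a log2 difference of -0.91 (adjusted p = 0.0743, edgeR) with overlapping groups. It was called only when Stag2-/- replicate 2 was left out, and without the other libraries its adjusted p was 0.184, 0.161 and 0.108 (Stag1-/- replicates 1, 2 and 3) and 0.311 and 0.129 (Stag2-/- replicates 1 and 3). With the replicate number as a block, Dll3 (0.36, adjusted p = 0.0664) and Hes1 (-0.46, adjusted p = 0.0132) were called too, in a fit that called 37.3% of all genes. Dll3 was then higher, and Hes1 lower, in the libraries labelled Stag1-/-. Without the block Hes1 was called when Stag2-/- replicate 1 was left out (-0.75, adjusted p = 0.0549).

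The rest of the pathway was described from a list of 67 other genes, from receptor processing to the nuclear complex, of which 63 were tested. In Stag1-/- siGLO 9 rose and 5 fell. In Stag2-/- siGLO 13 rose and 4 fell, and in Stag2-/- siStag1 22 rose and 7 fell. As shares of those tested these were 22.2%, 27% and 46%, against 20.0%, 28.3% and 43.9% of all genes, so without the block the list was called about as often as genes in general. Its median log2 fold changes were 0.14, 0.08 and 0.14. With the replicate number as a block 25 (39.7% of the 63) and 30 (47.6%) were called in Stag1-/- and Stag2-/- siGLO, against 30.6% and 39.4% of all genes. Of these, 15 rose and 10 fell in Stag1-/- siGLO, and 19 rose and 11 fell in Stag2-/- siGLO.

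Among the nuclear activators, the DNA-binding partner of all Notch receptors was lower wherever Stag2 was knocked out. Rbpj stood at 483, 467 and 387 CPM in wild-type siGLO, at 299, 246 and 248 CPM in Stag2-/- siGLO and at 191, 178 and 196 CPM in Stag2-/- siStag1. None of these groups overlapped. Rbpj fell by 0.75 (SE 0.11, adjusted p = 0.000193, edgeR) and by 1.24 (SE 0.11, adjusted p = 4.67e-07) on the log2 scale against wild-type siGLO, and by 0.49 from Stag2-/- siGLO to Stag2-/- siStag1 (SE 0.11, adjusted p = 0.019). In the libraries labelled Stag1-/- it stood at 458, 511 and 446 CPM, and Rbpj was higher there than in Stag2-/- siGLO by 0.84 (SE 0.11, adjusted p = 8.93e-05). Of the 9 nuclear activators, 6 were called in Stag2-/- siStag1, and the other 5 of these rose, against 43.9% of all genes called. Of those 5 the coactivator gene Maml2 rose most, from 3.87, 2.69 and 1.56 CPM to 5.605, 7.77 and 9.76 CPM, a log2 rise of 1.51 (SE 0.33, adjusted p = 0.00201, edgeR). None of the 9 was called in Stag1-/- siGLO, against 20.0% of all genes.

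Among the ligand endocytosis genes, Mib2, a ubiquitin ligase that acts on Notch ligands in the sending cell, stood at 59.0, 58.5 and 65.3 CPM in wild-type siGLO. It stood at 51.7, 32.8 and 35.2 CPM in Stag2-/- siGLO and at 28.9, 24.4 and 22.0 CPM in Stag2-/- siStag1. The 3 groups did not overlap. Mib2 fell by 0.61 (SE 0.15, adjusted p = 0.00968, edgeR) and by 1.28 (SE 0.15, adjusted p = 1.16e-05) on the log2 scale against wild-type siGLO, and by 0.67 with siStag1 in Stag2-/- cells (adjusted p = 0.0223). That last call was lost without Stag2-/- siStag1 replicate 3 (-0.58, adjusted p = 0.117) and with only the compared libraries in the fit (-0.68, adjusted p = 0.201). All 4 genes of this group were called higher in the libraries labelled Stag1-/- than in Stag2-/- siGLO, against 12.7% of all genes. Neurl1b, also a ligase for ligands, differed most, by 1.30 (SE 0.28, adjusted p = 0.00474).

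Among the other regulators of the signal, Dtx4, a Deltex ubiquitin ligase, stood at 10.8, 9.99 and 9.90 CPM in wild-type siGLO and at 34.0, 33.2 and 28.6 CPM in Stag1-/- siGLO. It stood at 20.5, 26.1 and 32.4 CPM in Stag2-/- siGLO and at 39.0, 41.3 and 57.9 CPM in Stag2-/- siStag1. Whether Dtx4 raises or lowers the signal in these cells was not tested. All 3 conditions lay above wild-type without overlap. Dtx4 rose by 1.64, 1.36 and 2.17 on the log2 scale (SE 0.17 for each, adjusted p = 1.16e-05, 5.13e-05 and 1.48e-07, edgeR), and by 0.81 with siStag1 in Stag2-/- cells (SE 0.16, adjusted p = 0.00872). The last of these was not called with only the compared libraries in the fit (0.79, adjusted p = 0.153). In wild-type cells with siStag1 Dtx4 stood at 16.8, 16.4 and 15.7 CPM, above all siGLO libraries, a difference of 0.67 (SE 0.17, adjusted p = 0.221). With the replicate number as a block that difference was called (0.67, adjusted p = 0.0697), as was that of the HES family gene Hes6 (0.51, adjusted p = 0.0727), named here after its value was seen. These were the 2 genes of the 63 tested that the block called there, in a fit that called 1.63% of all genes. Without the block edgeR called 0 of the 63, and 7 had an unadjusted p under 0.05, against 6.36% of all genes. DESeq2 called 1 of the 63, and its number of calls over all genes is given in the last section. Nrarp, which encodes an inhibitor of the Notch complex and is itself a known Notch target, rose with siStag1 in Stag2-/- cells by 0.69 (SE 0.22, adjusted p = 0.0963, edgeR). That call was lost without Stag2-/- siGLO replicate 1 (0.48, adjusted p = 0.286) or 2 (0.79, 0.12), or without Stag2-/- siStag1 replicate 2 (0.68, 0.219) or 3 (0.56, 0.351), and with only the compared libraries (0.68, 0.298). Nrarp was also not called with scaling by library size alone (0.71, 0.11) or with at least 10 counts in every library (0.69, 0.101).

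Receptor processing and corepressors gave changes in both directions. Adam10, the protease that makes the first ligand-induced cut in Notch, stood at 63.9, 62.7 and 65.3 CPM in wild-type siGLO and at 36.5, 44.1 and 42.5 CPM in Stag1-/- siGLO. Its log2 level fell by 0.64 without overlap (SE 0.09, adjusted p = 0.000239, edgeR). Aes, a short Groucho-family corepressor, stood at 177, 172 and 180 CPM in wild-type siGLO and at 79.3, 71.8 and 78.1 CPM in Stag2-/- siStag1. Aes fell by 0.51 in Stag1-/- siGLO (adjusted p = 0.00499), by 0.61 in Stag2-/- siGLO (adjusted p = 0.00124) and by 0.60 with siStag1 in Stag2-/- cells (adjusted p = 0.00573). Lfng, a sugar transferase that tunes which ligands a receptor answers to, rose by 0.78 in Stag1-/- siGLO (adjusted p = 0.0463, edgeR). The Lfng call was lost without wild-type replicate 3 (0.56, adjusted p = 0.172) or Stag1-/- replicate 1 (0.75, adjusted p = 0.123). Dlk1, a non-canonical ligand-like gene, rose by 1.11 and 1.25 in Stag1-/- and Stag2-/- siGLO (SE 0.20 for each, adjusted p = 0.00167 and 0.000571).

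**Figure D4:**
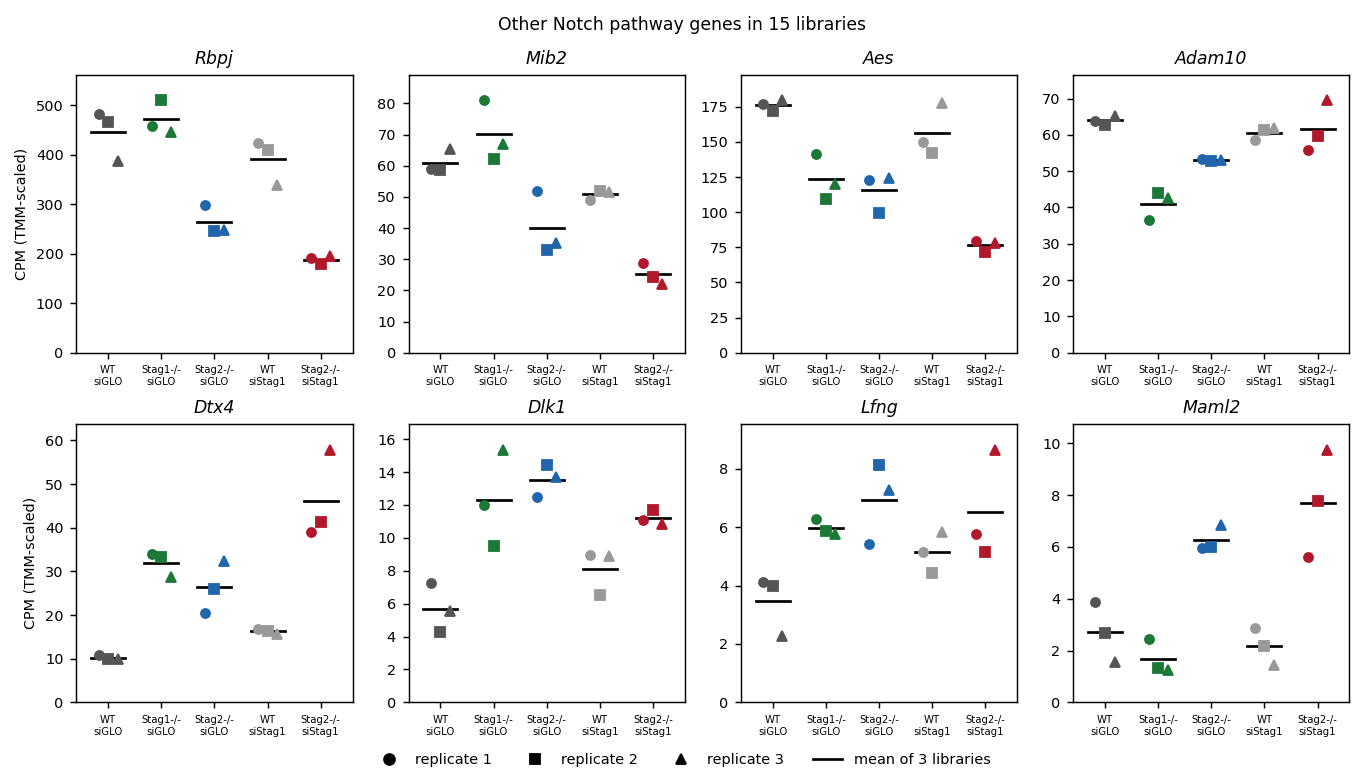
TMM-scaled counts-per-million (CPM, y axis from 0) of 8 other genes of the pathway in the 15 libraries, with points shaped by replicate number and bars at the means of 3. Rbpj and Mib2 lay below wild-type siGLO in both Stag2-/- conditions, while Dtx4 lay above wild-type siGLO in all 4 other conditions.

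Several named genes of the pathway rested on few reads. Hes3, of the same family as Hes1 and Hes5, had 1, 1 and 3 reads in the wild-type siGLO libraries, 18, 21 and 31 in Stag2-/- siGLO and 32, 18 and 24 in Stag2-/- siStag1. Both differences were called higher (adjusted p = 0.00016 and 5.05e-05, edgeR). Hes3 was lower in the libraries labelled Stag1-/-, with 7, 2 and 7 reads, than in Stag2-/- siGLO (adjusted p = 0.00253). Neurog1, a proneural factor, was lower in Stag1-/- siGLO, with 2, 1 and 4 reads against 18, 8 and 4 in wild-type siGLO (adjusted p = 0.0538, edgeR). That call was lost without wild-type replicate 1 (adjusted p = 0.275) or Stag1-/- replicate 1 (0.146) or 2 (0.16). Dlk2 was lower in Stag2-/- siStag1, with 2, 1 and 3 reads against 13, 6 and 6 (adjusted p = 0.038, edgeR), a call lost without wild-type replicate 1 (adjusted p = 0.153) or Stag2-/- siStag1 replicate 2 (0.123). Between the knockouts Dlk2 was higher (adjusted p = 0.0279) and Neurog1 lower (adjusted p = 0.0837) in the libraries labelled Stag1-/-. The Dlk2 call was lost without Stag1-/- replicate 2 (adjusted p = 0.123), and the Neurog1 call without Stag1-/- replicate 1 (0.171) or 2 (0.239) or Stag2-/- replicate 1 (0.205) or 3 (0.147). That Neurog1 call was also lost with DESeq2 (adjusted p = 0.107) and in edgeR without the filter on low counts (0.117). No fold change is given for these 3 genes, given so few reads. The corepressor gene Tle2 was lower in Stag2-/- siStag1 (-1.28, adjusted p = 0.0833), and the gamma-secretase gene Aph1c was higher in the libraries labelled Stag1-/- than in Stag2-/- siGLO (1.22, adjusted p = 0.091). Leaving out any 1 of 5 of the 6 libraries ended each of these calls, with adjusted p of 0.107 to 0.195 for Tle2 and 0.102 to 0.217 for Aph1c, the exceptions being Stag2-/- siStag1 replicate 3 and Stag2-/- siGLO replicate 3.

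The genes whose levels over the 15 libraries were most like those of Notch4 were Csrp2 (r = 0.975), Grhl3 (r = 0.970) and Scpep1 (r = 0.960). Here r is Pearson's r of the log2 of CPM plus 1, and the added 1 weighs most for a gene as low as Hes5. For Dll3, the ligand that varied most, they were Cacng7 (r = 0.944), Ston2 (r = 0.939) and Upp1 (r = 0.938), and for Hes5 they included Igfbpl1 (r = 0.925) and Epb4.1l3 (r = 0.923). These are descriptions over libraries that share conditions and replicate numbers.

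Markers of pluripotency and of other cell types moved in the same libraries. In bulk RNA, fewer cells of a type and less RNA per cell cannot be told apart. Their counts stand against 14.4% of all genes lower and 13.9% higher in Stag2-/- siGLO, 21.3% lower and 22.6% higher in Stag2-/- siStag1, 9.93% lower and 10.1% higher in Stag1-/- siGLO, and 0.248% called in wild-type siStag1. Of 10 naive mESC markers, 9 were lower in Stag2-/- siStag1, with a summed level of 433 to 455 CPM against 2067 to 2337 CPM in wild-type siGLO. Of the same 10, 7 were lower and 2 higher in Stag2-/- siGLO, at 1331 to 1394 CPM, and in Stag1-/- siGLO 3 were lower and 1 higher, at 1572 to 1843 CPM. In wild-type siStag1 2 were lower, and the sum of 1543 to 1640 CPM also lay below wild-type siGLO without overlap. Of 7 formative and primed epiblast markers, 6 were higher in both Stag2-/- conditions (1005 to 1187 and 1236 to 1610 CPM, against 322 to 449 CPM) and 3 in Stag1-/- siGLO (578 to 799 CPM). All 7 tested primitive endoderm markers of 9 were lower in both knockouts with siGLO and in Stag2-/- siStag1, at 19.5 to 68.4 CPM summed against 233 to 255 CPM, and none was called in wild-type siStag1. Of 10 neural markers (9 tested), 5 were higher in Stag2-/- siGLO and 4 in Stag2-/- siStag1, at 197 to 308 and 221 to 377 CPM against 143 to 186 CPM. Replicate 2 of Stag2-/- siGLO, the library low in Dll1 and Dll3, had a summed level of 93.5 CPM for 13 primitive streak and mesoderm markers, against 19.2 to 38.7 CPM in the 14 other libraries. Of the 10 tested of that list, 4 were higher and 2 lower in Stag2-/- siGLO, 4 higher and 1 lower in Stag2-/- siStag1, 1 higher in Stag1-/- siGLO and none called in wild-type siStag1. Of 5 endothelial markers, 3 were lower in Stag2-/- siStag1, at 40.9 to 64.9 CPM summed against 93.7 to 98.4 CPM, in the condition where Notch4 was lowest. Their sum also lay below wild-type siGLO without overlap in Stag2-/- siGLO (49.3 to 84.7 CPM, 1 called lower), in Stag1-/- siGLO (78.8 to 89.0 CPM, 1 lower) and in wild-type siStag1 (72.2 to 82.2 CPM, none called), and Notch4 was not called in the last 2. The libraries labelled Stag1-/-, where Jag2 was highest, had 5 of 7 tested trophoblast markers higher, at 363 to 580 CPM against 187 to 244 CPM. Trophoblast markers were lower in Stag2-/- siGLO (2 of 7, 101 to 160 CPM) and Stag2-/- siStag1 (3 of 7, 78.8 to 137 CPM), where Jag2 was not called. Of 9 fibroblast markers (5 tested, with S100a4 and Lum at 3 reads or fewer in every library), 2 were higher in each Stag2-/- condition and 1 was lower in Stag1-/- siGLO. The part of these markers in the Notch results was not tested. Medians over all tested genes of each chromosome that carries one of the 10 genes lay between -0.04 and 0.05 on the log2 scale in all 4 comparisons with wild-type siGLO, a check added after the data were seen.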

How the data were processed

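Gene counts came from polyA RNA-seq of 15 libraries. The submitters' processing notes name STAR, DESeq2 and the mouse build mm10. The deposited files hold whole-number counts per gene that the authors had not normalized, and the counting tool, annotation and strand setting are not given in the sources used here. All 23412 genes were read, 19494 had at least 1 count, and 14508 passed filterByExpr (minimum count 10, minimum total 15). Counts were scaled by TMM and fitted over all 15 libraries with edgeR 4.0.16 (glmQLFit, glmQLFTest) in R 4.3.3, with Benjamini-Hochberg adjustment over all tested genes and a threshold of 0.1. Each SE is the size of the log2 fold change divided by the square root of F. The 95% intervals use edgeR's total degrees of freedom, which add prior to residual ones. The pipeline was tested on simulated data. DESeq2 1.42.0 was an alternative. Depth of 14982560 to 19070126 reads limits Hes5 and the other low genes most.

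Groups came from the labels. The members and lists were chosen with earlier results of these data known. Other pathway genes were named by rule: in each comparison, up to 3 called genes with the largest rise and up to 3 with the largest fall, among those whose libraries did not overlap. The 3 genes most like a member were named for the receptor, ligand and target gene that varied most over the libraries. One of those genes is not reported here. Same-numbered libraries deviated together in 27 of 30 pairs from different conditions (r over 0.1, mean 0.296, against -0.145 over 60 pairs with different numbers). Every pair passed for 5 comparisons, so their blocked values stand beside results they change. The pairing did not hold throughout for Stag2-/- siStag1 against wild-type siGLO, for the difference of siStag1 effects or for the test over all 5 conditions. The test of replicate number and the chromosome medians were chosen after the data were seen. No 2 libraries of a group agreed within sampling noise (chi-square per degree of freedom 4.52 to 25.2). Positions and exon lengths are from GENCODE M21 (mm10), promoters from RefSeq (GRCm38.p6). Plots used Python 3.11.15 with matplotlib 3.10.9.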

Additional observations from a re-analysis of the deposited data

How the results depend on the processing

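Of 80 results for single genes of the 10 (a log2 fold change, or a difference among conditions), 80 kept their direction and their side of the threshold with DESeq2 size factors in edgeR, 79 with DESeq2, 78 without the filter on low counts, 76 with scaling by library size alone, 74 at an adjusted p of 0.05 and 70 with the replicate number as a block. With at least 10 counts in every library 71 of 72 did, and with only the compared libraries in the fit 62 of 67. The cause of the changes below was not tested. For siStag1 in wild-type cells, 36 genes were called, against 131 (and 1 pathway gene) by DESeq2, 126 (and 2 pathway genes) with only the compared libraries, 22 at 0.05 and 236 (2 pathway genes) with the block. The difference of siStag1 effects gave 23 genes, against 102 by DESeq2, 14 with only the compared libraries and 138 with the block. For Stag2-/- siStag1 against Stag2-/- siGLO, only the compared libraries gave 224 genes, 1 of the 10 and 2 pathway genes, 0.05 gave 548 genes and 1 of the 10, and the block gave 2049 genes and 10 pathway genes. Between the knockouts, only the compared libraries gave 2406 genes and 11 pathway genes. The block gave 4443 genes and 25 pathway genes in Stag1-/- siGLO and 30 pathway genes in Stag2-/- siGLO. For the difference of siStag1 effects, where not every same-number pair passed, the block called 1 of the 10, Notch4 (-0.85, adjusted p = 0.0778). It also called Jag2 in Stag2-/- siStag1 (0.22, adjusted p = 0.0369), where that was so too. Beyond these and the blocked values given with the results, the block changed no other call of the 10 genes. The uncalled sign turned for Notch1 in Stag2-/- siStag1 against Stag2-/- siGLO with library size alone (0.0043), and for Hes1 in Stag2-/- siStag1 against wild-type siGLO without the filter (-0.0091), with at least 10 counts (-0.00053) and with the block (-0.015). The rise of Notch3 in Stag2-/- siGLO was not called with library size alone (adjusted p = 0.104) or with only the compared libraries (0.139), and that of Dll1 was called by DESeq2 (0.0746) and without the filter (0.0918). Leaving out each library in turn gave 1915 to 2748 genes called in Stag1-/- siGLO (3 to 3 of the 10, 8 to 15 pathway genes), 2524 to 3985 in Stag2-/- siGLO (3 to 5, 12 to 19), 1 to 15 in wild-type siStag1 (0 to 0, 0 to 0), 5166 to 6218 in Stag2-/- siStag1 (6 to 8, 26 to 29), 2539 to 3522 between the knockouts (3 to 5, 10 to 18), 416 to 1484 for Stag2-/- siStag1 against Stag2-/- siGLO (1 to 2, 3 to 8), 13 to 76 for the difference of siStag1 effects (0 to 0, 0 to 0) and 6579 to 7708 over all conditions (7 to 9, 28 to 35). Uncalled signs turned there for Dll1 in Stag1-/- siGLO (-0.32 to 0.31), for Jag2 (-0.096 to 0.11) and Hes5 (-0.26 to 1.33) in Stag2-/- siGLO, for Notch3 (-0.0076 to 0.32), Notch4 (-0.24 to 0.047), Dll1 (-0.21 to 0.42) and Hes5 (-0.013 to 0.98) in wild-type siStag1, for Hes1 in Stag2-/- siStag1 (-0.21 to 0.21), for Notch3 (-0.51 to 0.041) and Hes5 (-0.18 to 1.37) between the knockouts, for Notch1 in Stag2-/- siStag1 against Stag2-/- siGLO (-0.19 to 0.13), and for Notch1 (-0.075 to 0.24), Notch3 (-0.072 to 0.48), Jag1 (-0.025 to 0.16), Jag2 (-0.21 to 1.84e-05) and Hes1 (-0.34 to 0.18) in the difference of siStag1 effects.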
